A study of Saccharomyces cerevisiae with 2 samples.

Results

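Mitochondrial aminoacyl-tRNA synthetases were represented by 10 diploid yeast strains, each lacking 1 copy of the gene for one of these enzymes, which were followed in a competition between pooled deletion strains. They were chosen by gene symbol (DIA4, MSM1, MSF1, MSR1, MSW1, MSY1, MSD1, MSE1, MSK1 and NAM2) among 5325 symbols on the array, and 10 of 10 were measured. DIA4 was already known from the same 2 arrays to have one of the most positive ratios of all strains, and the other members were added to see whether that ratio is shared by genes of the same kind. The values of the 10 members are therefore given as a description with no test.

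In the study, Saccharomyces cerevisiae strains heterozygous for single gene deletions (5896 in the pool, each haploid-convertible) received 1 of 2 cassettes. In the tub1 pool the cassette tub1D::URA3 replaced a copy of TUB1, the major alpha-tubulin gene, by URA3, so that the diploids lacked 1 copy of TUB1 and 1 copy of another gene. In the control pool the cassette ura3D::URA3 carried URA3 to its own locus, so that 1 copy of the other gene alone was missing. Both pools grew for 2 days at 30 °C on medium without uracil, and the molecular barcodes (tags) that mark each strain were amplified from genomic DNA and hybridised together, with the tub1 pool in Cy3 and the control pool in Cy5. The question was synthetic haploinsufficiency, that is, which single-copy deletions alter growth when 1 copy of TUB1 is missing too. The unit of measurement is a pool of transformants, a member is 1 strain within it, and its second gene copy remains.

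Aminoacyl-tRNA synthetases attach an amino acid to its tRNA. Yeast keeps separate nuclear genes for many of the enzymes that work inside mitochondria, where a small ribosome translates the few messages of the mitochondrial genome into subunits of the respiratory chain and the ATP synthase. Haploid cells that lack one of these enzymes cannot respire and often lose their mitochondrial DNA, but can still grow by fermentation.

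Values are log2 tag ratios in the sign of the deposited table, after subtraction of the median of each array and tag set, with mean ± SD over n = 2 arrays. Each strain carries an upstream and a downstream tag. Which probe set reads which is not stated in the sources used here, and they are named first and second tag here. The labels do not state the direction of the ratio. From the dyes and the usual red over green ratio of the scanner program, the likely reading of a positive ratio is a lower tag level in the tub1 pool than in the control pool. The TUB1 strain could not check this, because values were present for 0 of its 4 tag measurements. The strain lacking 1 copy of TUB3, the minor alpha-tubulin gene, stood at 4.22 ± 0.32. Whether the experiments numbered 1 and 2 were separate transformations is not stated, so the spread between arrays may be technical, and both arrays had the same dye orientation. Of 5219 strains with a value on both arrays, limma called 0 with positive ratios (0.0%) and 0 with negative ratios (0.0%) at an adjusted p under 0.05. A count of 0 passing strains in any list below follows from this and says nothing particular to that list. The TUB3 strain, at 4.22 ± 0.32, did not pass either, so a strain that does not pass is not shown to be unchanged. At an unadjusted p under 0.05 the counts over all strains were 476 and 612. All 10 members had 1 spot per tag, so no spread between spots was available for them.

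DIA4 (YHR011W), which encodes the mitochondrial seryl-tRNA synthetase and is named for an invasive growth phenotype of its mutant, had tag ratios of 1.60 and 1.97 on array 1 and of 2.36 and 2.32 on array 2. All 4 values lay above the 95th percentile of all tag values, which was 0.86. The mean was 2.06 ± 0.40, or 4.18-fold on the linear scale, and ranked 2 among 5219 strains. The tags differed by 0.37 on array 1 and by 0.04 on array 2, against a median difference of 0.46 and 0.35 over all strains. The 2 tags of DIA4 gave the same sign and a like size on both arrays. Its choice for a high ratio in these same values favours such a likeness, so nothing is read from it.

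**Figure D1:**
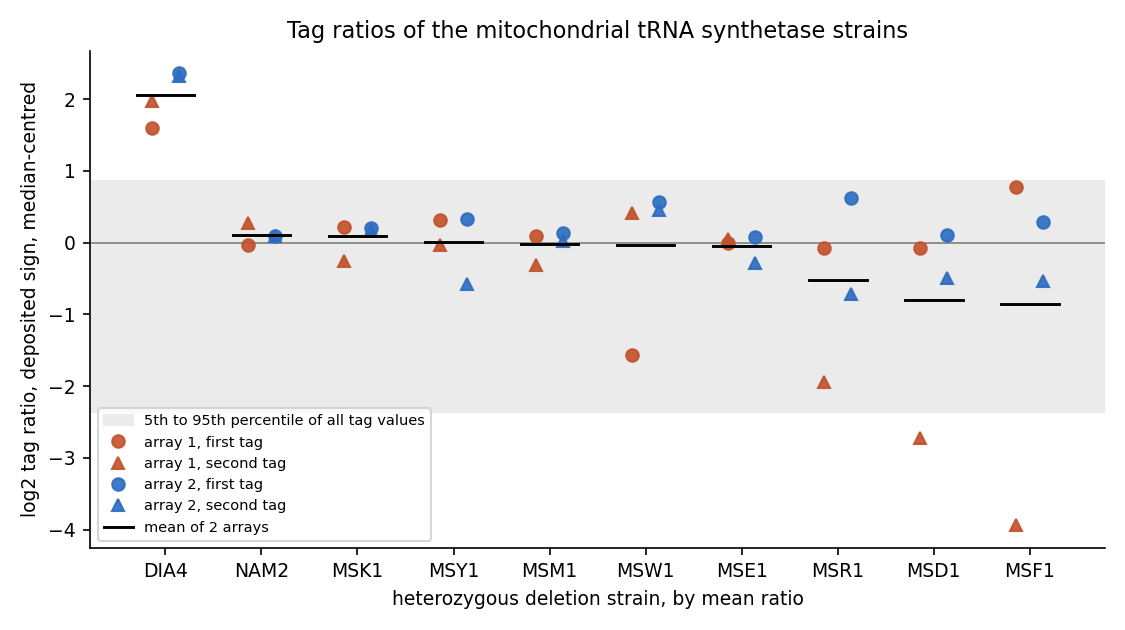
Each point is the log2 tag ratio (vertical axis, deposited sign, median subtracted) of 1 tag on 1 array for the 10 strains, ordered by their mean (black bar, n = 2 arrays); grey marks the 5th to 95th percentile of all tag values. The 4 DIA4 values lie between 1.60 and 2.36, above all 36 values of the other strains, and the lowest values are second tags on array 1.

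None of the 9 other members showed a ratio of this size. Of their 36 tag values, 0 were at or over 1. Over all strains that share was itself small, from 2.49% to 3.44% by array and tag set. The highest of the 36 was 0.77, while the lowest DIA4 value was 1.60. Within 0.5 of 0 lay 26 of the 36 values, a range for which no share over all strains was taken, so nothing is read from that count. The median of the 9 over both arrays was -0.04, against -0.09 for all 5219 strains. DIA4 stood above the median of the others by 1.89 on array 1 and 2.39 on array 2, a difference of 2.14 ± 0.35. Its gap to the highest other member on each array was 1.64 and 1.83. At least 2-fold positive on both arrays was 1 of 10 members, DIA4, against 0.728% of all strains. All 4 tag values were at least 2-fold positive for the same 1 member, against 0.405% of strains with 4 values. All 4 tag values were negative for 0 of 10 members (20.1% of strains) and at least 2-fold negative for 0 of 10 (0.597%). DIA4 was chosen for this ratio, so nothing is read from these counts.

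With both tags of an array kept as separate values in the limma fit and the array as a random block, 6.94% of strains were called positive and 3.27% negative. The fit estimated a correlation of -0.29 between the tags of an array, and a negative value makes the standard error smaller. Both tags of a strain read the same pools, so this fit counts more values than there are arrays. Its calls are therefore not read as detections. DIA4 was 1 of the positive calls and no member was among the negative ones, and since DIA4 was picked from these tag values nothing is read from its call.

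NAM2 (YLR382C), the leucyl-tRNA synthetase gene whose product also takes part in splicing of mitochondrial introns, had -0.03 and 0.27 on array 1 and 0.09 for either tag on array 2. Its mean of 0.10 ± 0.02 was the highest after DIA4. MSK1 (YNL073W), the lysyl-tRNA synthetase gene, whose precursor protein also serves the import of a cytosolic lysine tRNA into mitochondria, had 0.22 and -0.26 on array 1 and 0.21 and 0.18 on array 2, a mean of 0.09 ± 0.15. In both strains the values lay on either side of 0.

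MSY1 (YPL097W), the tyrosyl-tRNA synthetase gene, had 0.31 and -0.03 on array 1 and 0.33 and -0.58 on array 2, with a mean of 0.01 ± 0.19. Its first tag was positive and its second negative on both arrays. MSM1 (YGR171C), the methionyl-tRNA synthetase gene, had 0.09 and -0.31 on array 1 and 0.13 and 0.03 on array 2, a mean of -0.02 ± 0.13. MSE1 (YOL033W), the glutamyl-tRNA synthetase gene, had 0.00 and 0.05 on array 1 and 0.07 and -0.28 on array 2, a mean of -0.04 ± 0.09. These 5 strains, from NAM2 to MSE1, had 20 tag values within 0.7 of 0. For that range too no share over all strains was taken, so nothing is read from it.

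MSW1 (YDR268W), the tryptophanyl-tRNA synthetase gene, averaged -0.04 ± 0.77, but this mean combines 3 positive tag values with a negative one. Its first tag gave -1.57 on array 1 and 0.56 on array 2. Its second tag gave 0.41 on array 1 and 0.46 on array 2. The arrays thus differed in sign for the first tag of MSW1 and not for the second.

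MSR1, MSD1 and MSF1 were the lowest members, and in each the low value came from the second tag on array 1. MSR1 (YHR091C), the arginyl-tRNA synthetase gene, had -0.08 and -1.94 on array 1 and 0.63 and -0.72 on array 2, a mean of -0.53 ± 0.68. MSD1 (YPL104W), the aspartyl-tRNA synthetase gene, had -0.08 and -2.72 on array 1 and 0.10 and -0.49 on array 2, a mean of -0.80 ± 0.85. MSF1 (YPR047W), the phenylalanyl-tRNA synthetase gene, had 0.77 and -3.94 on array 1 and 0.28 and -0.53 on array 2, a mean of -0.85 ± 1.03. The second tag was below the first in all 3 strains on both arrays, and on array 2 no value reached -1.

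Low second tags on array 1 were common in the whole table: 15.9% of second tags on array 1 were at or under -1.5, against 3.99% on array 2. For first tags the shares were 13.2% and 3.84%. The gap of 4.71 between the tags of MSF1 on array 1 was met or passed by 1.08% of strains, that of 2.64 for MSD1 by 11.0%, and that of 1.86 for MSR1 by 19.0%. The deposited ratio of the second MSF1 tag on array 1 was 0.06 on the linear scale, written with 2 decimals, so its log2 value is coarse. Without the second tag on array 1, a setting chosen after the values were seen, the means of MSR1, MSD1 and MSF1 were -0.06, -0.14 and 0.32.

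**Figure D2:**
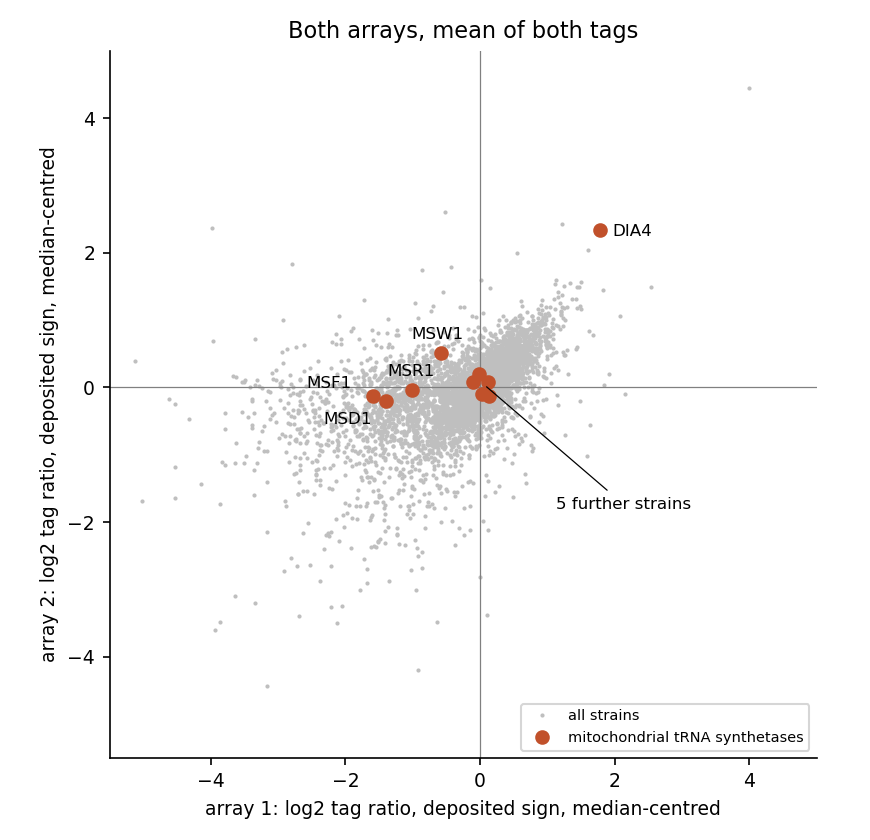
Each point is 1 strain, with its log2 ratio (mean of both tags, deposited sign) on array 1 along the horizontal axis and on array 2 along the vertical axis; the 10 synthetase strains are in red over all 5219 strains in grey. DIA4 lies at 1.78 and 2.34, MSF1, MSD1 and MSR1 lie left of -1 on array 1 and near 0 on array 2, and 5 further strains cluster at the origin.

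In the order of means, only the step between DIA4 and NAM2 (1.96) was larger than the combined SD of the neighbouring strains (0.40). DIA4 was chosen for its high ratio on these arrays, so nothing is read from that step. The 8 steps from NAM2 down to MSF1 were each smaller than the combined SD of the 2 strains. Neighbouring strains among the other members are thus not ordered beyond that spread, and strains further apart in the order were not compared. The SD between arrays was 0.02 for NAM2 and 1.03 for MSF1, against a median of 0.20 over all strains. Positive on both arrays were 2 of 10 members, DIA4 and NAM2, against 32.7% of all strains. Negative on both arrays were 3 of 10, MSF1, MSR1 and MSD1, against 41.7%. The remaining 5 changed sign between arrays, as did 25.6% of all strains. No member was at least 2-fold negative on both arrays, as 3.74% of strains were.

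Aminoacyl-tRNA synthetases fall into 2 unrelated structural classes. DIA4 belongs to class II with MSF1, MSD1 and MSK1, while MSM1, MSR1, MSW1, MSY1, MSE1 and NAM2 belong to class I. The 4 class II members spanned the whole range of the family, from -0.85 to 2.06. Without DIA4 the class II members had a median of -0.80, and the 6 class I members had a median of -0.03. On array 2, where low tags were rarer, those medians were -0.13 and 0.02. The lowest values of both classes rest on the second tags described above, and the difference between the classes was not tested.

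DIA4 has a cytosolic counterpart in SES1, the gene of the seryl-tRNA synthetase that serves cytosolic translation. The SES1 strain had 0.61 and 0.22 on array 1 and 0.53 for either tag on array 2, with a mean of 0.47 ± 0.08. All 4 values were positive, as in 20.4% of strains, and all were below the 4 values of DIA4. The difference of DIA4 over SES1 was 1.37 on array 1 and 1.81 on array 2 and was not tested.

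The 11 cytosolic counterparts of the members had a median of -0.09. On both arrays 5 were positive, against 32.7% of all strains, and 4 were negative on both, against 41.7%. The highest was MES1, for methionine, at 0.69 ± 0.58, with 1.37 and 0.83 on array 1 and -0.14 and 0.70 on array 2. Its mitochondrial partner MSM1 stood lower on both arrays, by 1.21 and 0.20. The lowest was YDR341C, for arginine, at -1.09 ± 0.11. Its first tag gave -0.08 and -0.77 on arrays 1 and 2, and its second gave -1.94 and -1.56. Like MSR1, its mitochondrial partner, it was lower in the second tag than in the first on both arrays. NAM2 stood above CDC60, the cytosolic leucyl-tRNA synthetase gene (-0.35 ± 0.25), on both arrays, by 0.65 and 0.26. MSY1 and TYS1 (0.19 ± 0.18), for tyrosine, differed by 0.18 and MSK1 and KRS1 (0.19 ± 0.12), for lysine, by 0.10, with the mitochondrial member lower in both pairs. In the pairs MSF1 and FRS1, MSW1 and WRS1, MSD1 and DPS1, and MSE1 and GUS1 the sign of the difference changed between the arrays. The mitochondrial member minus the cytosolic one was, on arrays 1 and 2, -1.09 and 0.29 for MSF1 and FRS1 and -1.24 and 0.81 for MSD1 and DPS1. It was -0.72 and 0.31 for MSW1 and WRS1, and 0.46 and -0.24 for MSE1 and GUS1. MSF1 stood below FRS2 by 1.28 on array 1 and 0.24 on array 2, and MSR1 minus YDR341C was 0.00 and 1.12. None of these differences was tested. By limma 0 of the 11 passed in either direction, and 1, YDR341C, had an unadjusted p under 0.05 on the negative side, as did 11.7% of all strains.

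**Figure D3:**
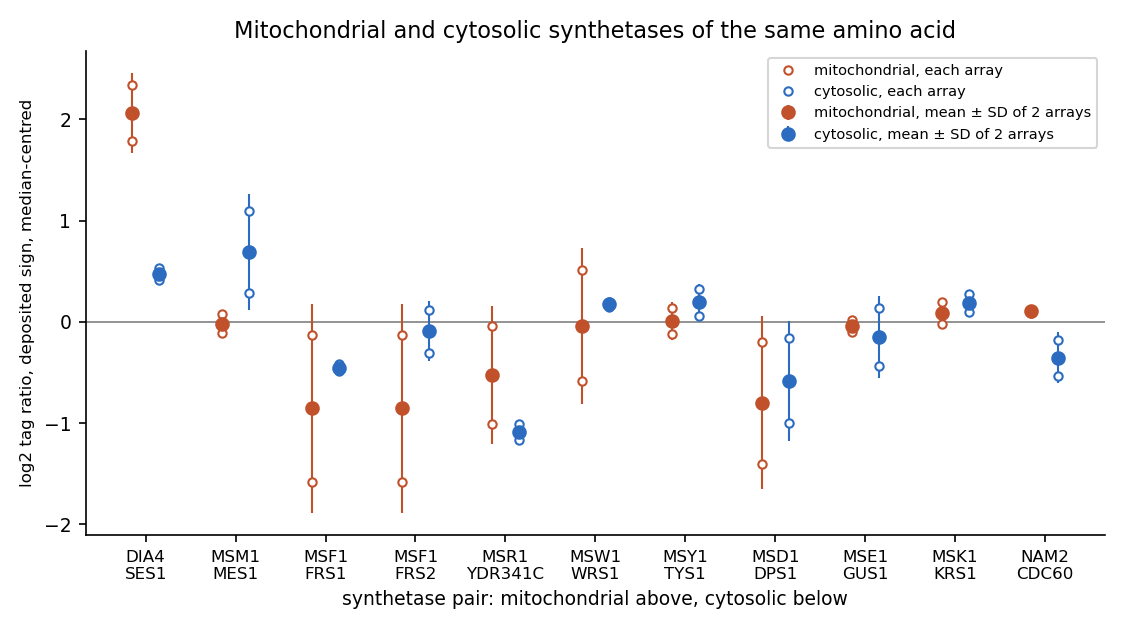
For each amino acid the mitochondrial synthetase strain (red) stands left of its cytosolic counterpart (blue), as log2 tag ratio with the deposited sign; large points and lines are mean ± SD and small open points are the 2 arrays. DIA4 at 2.06 lies above SES1 at 0.47, and in the other pairs both strains lie between -1.09 and 0.69; MSF1 is drawn beside FRS1 and again beside FRS2 because the cytosolic enzyme has both as subunits.

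A further 4 genes of enzymes that act in mitochondria were examined as a list, because the members do not cover all amino acids. ISM1, for isoleucine, had 0.99 and 0.70 on array 1 and 0.94 and 0.83 on array 2, a mean of 0.86 ± 0.03 that ranked 108 of 5219. MST1, for threonine, had 1.01 and 0.98 on array 1 and 1.07 and 0.25 on array 2, a mean of 0.82 ± 0.24 and rank 135. All 8 values of ISM1 and MST1 were positive, as all 4 tag values were in 20.4% of strains, and each mean was above the 9 members other than DIA4 and below DIA4.

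SLM5, for asparagine, stood at 0.09 ± 0.19, and AIM10, whose product resembles prolyl-tRNA synthetases, was lowest at -0.43, with values from -0.53 to -0.31. The median of the 4 was 0.46, with 2 positive (32.7% of all strains) and 1 negative (41.7%) on both arrays. By limma 0 passed, and ISM1 and MST1 had an unadjusted p under 0.05, as did 9.12% of strains on the positive side.

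Of 5 genes whose product serves both compartments, 4 were measured (GRS1, for glycine, was not analysed here). ALA1, for alanine, was highest at 0.63 ± 0.27, with all 4 values between 0.39 and 0.89. VAS1, for valine, was lowest at -0.70 ± 1.51, and its first tag had opposite signs on the arrays, at -3.06 and 1.13. The list stood at a median of -0.12, which was -0.53 for array 1 and 0.35 for array 2. ALA1 alone had an unadjusted p under 0.05, on the positive side (9.12% of all strains), and by limma 0 passed.

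Mitochondria of yeast make glutaminyl-tRNA indirectly, by an amidotransferase that acts on a mischarged tRNA. The 3 subunit strains had a median of 0.05. GTF1 was highest at 0.39 ± 0.12 and PET112 lowest at -0.11 ± 0.44. By limma 0 of the 3 passed, and 0 had an unadjusted p under 0.05.

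Strains lacking 1 copy of a gene for tRNA maturation or modification in mitochondria were split. Of 8, 4 had positive and 3 had negative ratios on both arrays, against 32.7% and 41.7% of all strains. Their median was 0.05. SLM3, which thiolates the wobble uridine of some mitochondrial tRNAs, was highest at 0.99 ± 0.07 and ranked 62 of 5219. It had 0.73 and 1.14 for array 1, and 0.58 and 1.50 for array 2. FMT1, which formylates the initiator methionyl-tRNA, was lowest at -1.46 ± 0.92, with -0.50 and -3.72 on array 1 and -0.74 and -0.87 on array 2. All 4 values of SLM3 were positive and all 4 of FMT1 negative. By limma 0 passed, and 2, SLM3 and CCA1, the tRNA nucleotidyltransferase gene (0.51 ± 0.12), had an unadjusted p under 0.05 on the positive side, as did 9.12% of all strains.

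Among the mitochondrial translation factors, 0 of 8 were positive on both arrays, against 32.7% of all strains. Negative on both were 4 of 8, against 41.7%. Their median of -0.41 came from -0.67 for array 1 and -0.33 for array 2. MEF1, an elongation factor G gene, was lowest at -1.23 ± 0.78, with all 4 values between -2.00 and -0.47. IFM1, the initiation factor gene, was highest at 0.05 ± 0.08, but its tags were -0.72 and 0.92 on array 2. By limma 0 passed, and TUF1, the elongation factor Tu gene (-1.10 ± 0.01), and MRF1, the release factor gene (-1.11 ± 0.64), had an unadjusted p under 0.05, as did 11.7% of all strains on the negative side. The first MRF1 tag was at -3.35 and the second TUF1 tag at -2.00 on array 1, against 0.23 and -0.18 for the other tag of each.

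Mitochondrial ribosomal protein strains were taken by gene symbol (MRP, MRPL, MRPS or RSM followed by digits), so genes with other names are not included. Of 67 such symbols 64 were measured, and these strains had a median of 0.09. On both arrays 26 were positive and 21 negative, against 32.7% and 41.7% of all strains. MRP2 was highest at 0.78 ± 0.06. MRPL36 was lowest at -2.67 ± 0.19, its second tag giving -3.94 and -4.60 while its first gave -1.67 and -0.47. By limma 0 passed, and 13 had an unadjusted p under 0.05, of which 6 were positive (9.12% of all strains were) and 7 negative (11.7% of all strains). Of the 102 strains in the 7 related lists described so far, 0 reached a 2-fold positive ratio on array 1 and array 2 alike (0.728% of all strains did), and 4, YDR341C, TUF1, MRPL36 and MRPL31, were at least 2-fold negative on both (3.74% of all strains).

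**Figure D4:**
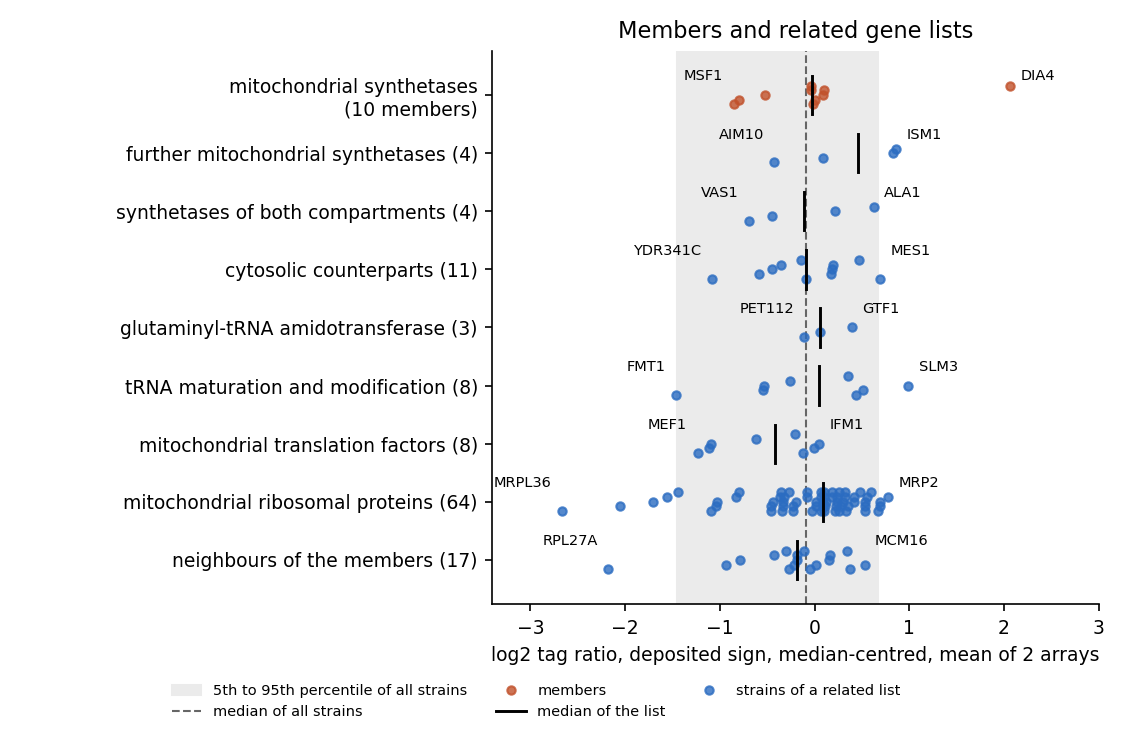
Each point is 1 strain's mean log2 ratio over 2 arrays (horizontal axis, deposited sign), grouped by list with the number of measured strains in brackets; black bars are list medians, the dashed line is the median of all strains (-0.09) and grey is their 5th to 95th percentile, from -1.45 to 0.67. DIA4 at 2.06 lies above all strains of the related lists, whose highest is SLM3 at 0.99, and RPL27A, MRPL3 and MRPL36 lie below -2.

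The nearest protein-coding genes on each side of the members were listed too. Both neighbours of DIA4 were measured. RPL27A, a protein gene of the large cytosolic ribosomal subunit, had -2.72 and -1.72 on array 1 and -2.14 for either tag on array 2, a mean of -2.18 ± 0.05 that ranked 5170 of 5219. VPS29, a retromer subunit gene, stood at -0.19 ± 0.03, with values from -0.36 to -0.05, near the median of all strains (-0.09). RPL27A was the lowest of all 17 measured neighbours.

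The neighbours of all members had a median of -0.19. Of the 17, 5 had positive ratios on both arrays and 9 negative ones, against 32.7% and 41.7% of all strains. The highest was MCM16, a kinetochore gene beside MSF1, at 0.53 ± 0.13. By limma 0 passed, and an unadjusted p under 0.05 was found for MCM16 on the positive side and for RPL27A, CCC2 and MGR2 on the negative side, as for 9.12% and 11.7% of all strains.

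The strains most like DIA4 were sought by Euclidean distance over the 4 tag values, among 5190 other strains that had all 4. The nearest 5 were RSC9 (distance 0.81), a subunit gene of the RSC chromatin remodelling complex, ERG12 (1.29), the mevalonate kinase gene, CIN4 (1.30), a GTPase gene of tubulin folding, MCD1 (1.37), a cohesin subunit gene, and APE3 (1.37), a vacuolar aminopeptidase gene. By mean ratio these strains ranked 4, 9, 8, 10 and 6 among all strains. DIA4 was chosen for a high ratio in these same values, so its nearest strains are bound to have high ratios too. No shared function is read from them. By locus tag RSC9 (YML127W) lies near TUB3 (YML124C), the strain with the highest mean ratio, and any part of position was not tested. RSC9 had 1.79 and 1.43 on array 1 and 2.33 and 1.75 on array 2. Array 2 was the higher one, as in DIA4, a likeness favoured by the choice of RSC9 by distance over these same values. The closest family member, NAM2, was at a distance of 3.96 and ranked 1653, and MSF1, at 6.93, ranked 4759. These 4 values share tags and arrays, and the distance is a description over 2 arrays.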

How the data were processed

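Tags amplified from the tub1 and control pools were hybridised on 2 two-colour arrays, scanned and read with GenePix 5.1, per the labels. Each deposited value is a log2 ratio of 1 spot: 100% were the log2 of a ratio with 2 decimals, within 0.001 of a hundredth. The sources used here do not give the background correction, normalization or direction, and spot intensities were not used, so weak spots could not be removed. The 2 values equal to a linear ratio of 1e+06 were set to missing. Probes were named through the platform annotation, and neighbours through the NCBI gene table of assembly R64. Strains with 1 or 6 spots per tag were used (781 had 6), and 105 symbols with another number of probes were left out. The mean of a tag's spots was taken, the median of each tag set on each array was subtracted, which moved array 1 by 0.12 and array 2 by 0.04 upward, and both tags were averaged. limma 3.58.1 in R 4.3.3 tested 5219 strains against 0 (lmFit, eBayes, two-sided, Benjamini-Hochberg, threshold 0.05) and was tested on simulated data. Python 3.11.15, pandas 2.3.3 and matplotlib 3.10.9 served for tables and plots. Only 2 arrays limit the precision. The members and lists were chosen with earlier results of these data known. Named strains are the members, the highest and lowest of each list, strains that a count of 5 or fewer singles out, the neighbours of DIA4, its 5 nearest strains, the TUB genes, and further counterparts (SES1, CDC60, TYS1, KRS1), chosen after their values were seen. Of the 20 neighbours 17 were measured. Tag, promoter and protein sequences were not used here. Alternatives are given in the closing section.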

Additional observations from a re-analysis of the deposited data

How the results depend on the processing

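The difference of DIA4 over the median of the other members lay between 1.87 and 2.41 under the 8 alternatives tried. The lowest came with the first tag set alone and the highest with the second. It was 2.39 on array 2 alone and 1.89 on array 1 alone. Some alternatives could not change it. Omitting the centring shifts all members alike, the median of a tag's spots equals the mean for 1 spot, and no member had the smallest deposited ratio, whose spots were left out in another setting. DIA4 itself ranged from 1.78 to 2.34. With tags as separate values and a random block for the array, limma made 360 calls with positive and 170 with negative ratios (6.94% and 3.27% of 5191 strains) in place of 0 and 0. That fit used a correlation of -0.29 within an array and counted both tags of the same pools as separate values, so its calls are not read as detections. DIA4, picked from these values, was among the positive calls, from which nothing is read. With the first tag set alone, 5 members were positive and 0 negative on both arrays, in place of 2 and 3, and without centring 1 was positive. Counts on single arrays were 4 to 5 positive, 5 to 6 negative, and 0 to 3 at least 2-fold negative, the 3 being on array 1. Shares over all strains were not taken under these settings, so nothing is read from these counts. For first and second tags over all strains, 17.0% and 19.2% were at or under -1 on array 1. On array 2 these shares were 7.79% and 6.45%. MSR1, MSD1 and MSF1 had means of -1.33, -1.60 and -2.24 on the second tag alone. With the first tag set alone the median was 0.11 for cytosolic counterparts, 0.19 for tRNA maturation and modification, 0.032 for mitochondrial ribosomal proteins and 0.051 for the neighbours of the members. With the second it was 0.060 for mitochondrial ribosomal proteins and -0.15 for the neighbours. Without centring these last medians were 0.0094 and -0.27. On single arrays the median ranged from -0.16 to 0.12 for cytosolic counterparts, from -0.67 to -0.33 for translation factors, from 0.018 to 0.059 for mitochondrial ribosomal proteins, from 0.018 to 0.14 for tRNA maturation and modification, and from -0.18 to -0.17 for the neighbours. The cause of these shifts was not tested. No paired analysis was possible because there is 1 group of 2 arrays. Single spots per tag and 2 arrays of the same dye orientation limit all values.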
